A study of Mus musculus with 4 samples.

Results

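The genomic flank beyond the Trav array of the mouse Tcra/Tcrd locus (T cell receptor alpha and delta), on the side rich in olfactory receptor genes, was described as a target of long-range contacts. It was taken as every HindIII fragment of chromosome 14 (build mm9) whose midpoint lies in chr14:49700001-53000000 and that appeared in at least 1 of 16 4C-seq libraries. This gave 758 fragments, out of 26314 listed on chromosome 14 and 471724 listed on all autosomes. They fell into 33 bins of 100 kb, with 12 to 35 fragments in a bin. No measured value entered the choice beyond the listing of a fragment, and no sequence feature was used.

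The 4C-seq method cuts crosslinked chromatin with a restriction enzyme, joins the ends that lie together in the nucleus, and amplifies by inverse PCR whatever was joined to 1 chosen restriction fragment, called the viewpoint. Reads of a viewpoint are densest beside it and thin out with distance along the chromosome, down to the level of ligation seen with other chromosomes. Olfactory receptors are G protein-coupled receptors of sensory neurons in the nose, encoded in large tandem arrays, and in lymphocytes such arrays are generally silent. The Trav segments encode the variable part of the T cell receptor alpha chain and are joined to J segments by the RAG recombinase in developing thymocytes.

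The tested cells were double-negative (CD4- CD8-) thymocytes, called DN, from litters of 3-week-old Rag2-/- mice on the C57BL/6 background. They were set against naive B cells of the spleen of wild-type C57BL/6 mice, called B. Without Rag2 the antigen receptor genes are not rearranged and thymocytes stop at the double-negative stage, so a comparison of the cell types is also one of genotype, tissue and developmental stage. There were 2 samples for either cell type, and 4 viewpoint libraries were made from every sample. TEA, short for T early alpha, is a promoter upstream of the J alpha segments that is active before rearrangement, Ed is the Tcrd enhancer, and the labels do not define INT1 and INT2. The thymocytes are described as taken from litters, with no statement that the replicates were separate litters, and the B samples carry the thymocytes' protocol text. The p-values therefore rest on the spread between these samples, which may be technical. The headers of the libraries also name 3 folders, of which 0 held both cell types, so folder and cell type cannot be told apart. Because the folders outnumber the cell types, the libraries of DN, of B or of both were split between folders. Which libraries shared a folder is not given here. Contact libraries hold no expression, and the cell type labels were not checked here against markers.

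Seen from the viewpoints, the flank begins between 1.68 and 1.77 Mb away and ends between 4.98 and 5.07 Mb away. A stretch of equal width at equal distance on the opposite side, chr14:56400001-59700000 with 800 listed fragments, served as a mirror. Bins carry no genes here, since an annotation of the files' build was not used. In the RefSeq gene order of another build (GRCm38), the chromosome 14 genes from Olfr722 to the last gene before Trav1 numbered 128, of which 82 were protein coding. Of these 82, 33 were olfactory receptor genes. A first cluster, from Olfr722 to Olfr749, held 27 of them together with 1 other protein-coding gene, Tlr11, a Toll-like receptor. The 54 protein-coding genes that followed included 6 olfactory receptor genes and 15 of the ribonuclease A family (Rnase, Ang and Ear genes). They also held widely used genes such as Apex1 (base excision DNA repair), Parp2 (DNA damage response), Chd8 (chromatin remodelling), Supt16 (a histone chaperone subunit), Hnrnpc (pre-mRNA binding) and Mettl3 (mRNA methylation). The run next to the Trav array held 4 olfactory receptor genes between Sall2 and Trav1, and another 3 lay between Trav1 and Trav2. How much of this order falls inside the 3.3 Mb was not determined.

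The libraries held 1220738 to 17287420 mapped reads, and 169129 to 2851909 of them lay on chromosome 14 once the viewpoint fragment and its 2 neighbours were left out. This chromosome 14 total is the library size used below unless another is named. The flank received 1671 to 26607 reads per library. The shallowest was Ed in DN replicate 1 and the deepest was TEA in B replicate 2. The labels describe no molecular identifiers, and PCR copies cannot be told from separate ligations, so the intervals given here cover counting error only. The exact 95% binomial interval of the flank's share of reads reached at most 0.0485 percentage points to either side.

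The flank took a smaller share of the chromosome's reads in thymocytes than in B cells, whichever viewpoint was used. From TEA the share was 1.22% and 0.846% in the DN libraries, against 2.43% and 2.20% in the B libraries. INT1 gave 1.14% and 0.813% in DN, against 2.23% and 1.80% in B. INT2 gave 1.19% and 0.929% in DN, against 2.23% and 2.496% in B. Ed gave 0.988% and 0.348% in DN, against 1.96% and 2.05% in B. The 2 cell types did not overlap from any viewpoint, and DN replicate 2 was the lowest library each time.

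On average the share was 1.03% ± 0.261 in DN, against 2.32% ± 0.162 in B from TEA (SD, n = 2 each). It was 0.977% ± 0.232 in DN, against 2.02% ± 0.302 in B from INT1, and 1.06% ± 0.186 in DN, against 2.36% ± 0.188 in B from INT2. From Ed it was 0.668% ± 0.452 in DN, against 2.01% ± 0.0630 in B. The exact two-sided permutation test gave p = 0.333 for each viewpoint, and this design allows no smaller p.

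The change was then fitted with limma over tiles of 3.3 Mb cut in phase with the flank along chromosome 14, leaving out tiles that reach within 1 Mb of a viewpoint. The measure was log2 of reads scaled to 1000000 reads of library size (chromosome 14 RPM) plus 10. In limma, part or all of a tile's spread is drawn from the other tiles of the same libraries. Those tiles are not further samples. How far this goes differs between viewpoints, so their p-values are not on the same footing. The log2 change was -1.19 from TEA (SE 0.41, limma adjusted p = 0.0111), and DN was lower in 94.4% of the 36 tiles at an adjusted p below 0.05. From INT1 it was -1.06 (SE 0.31, limma adjusted p = 0.00732), where 41.7% of tiles were lower. From INT2 it was -1.16 (SE 0.34, limma adjusted p = 0.0223), where 80.6% of tiles were lower. From Ed it was -1.77 (SE 0.54, limma adjusted p = 0.0747) and did not pass, where 2.78% of tiles were lower.

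The other tiles moved too. The fitted change was below 0 in all 36 tiles with TEA, INT1 and INT2, whose highest tiles stood at -1.09, -0.82 and -0.59, while with Ed the tiles ranged from -2.49 to 1.12. The median tile stood at -1.65 for TEA, -1.19 for INT1, -1.51 for INT2 and -1.15 for Ed. Among the 36 tiles, ordered from the highest change to the lowest, the flank had rank 4 with TEA, 9 with INT1, 12 with INT2 and 32 with Ed. It lay above the median tile by 0.46 from TEA, 0.14 from INT1 and 0.35 from INT2, and below it by a difference of -0.63 from Ed. These distances from the median were not tested. Leaving out either B library ended the call from TEA, INT1 and INT2, at limma adjusted p from 0.168 to 0.509, while the change stayed of similar size. Without B replicate 1 and without B replicate 2 it was -1.12 and -1.26 from TEA, -0.90 and -1.21 from INT1, and -1.25 and -1.08 from INT2. From Ed the change came to -2.52 once DN replicate 1 was dropped, and to -1.02 once DN replicate 2 was dropped. How many other tiles pass in these fits is not given here, so no call of the flank from Ed is drawn from them. Each such fit leaves 1 library in a group, which is assumed to vary like the other group. With the reads of each fragment capped at the 95th percentile the calls from TEA, INT1 and INT2 also ended, at -0.22, -0.66 and -0.43 (limma adjusted p = 0.510, 0.395 and 0.280). Without the mean-variance trend INT1 did not pass (limma adjusted p = 0.0517). Another library size counted only the chromosome 14 reads above the density seen on other autosomes. With it the change was -2.60, -1.85, -2.32 and -2.52 from TEA, INT1, INT2 and Ed. The flank's own reads were not reduced in this way, so these values are not the change of the flank above that density.

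**Figure D1:**
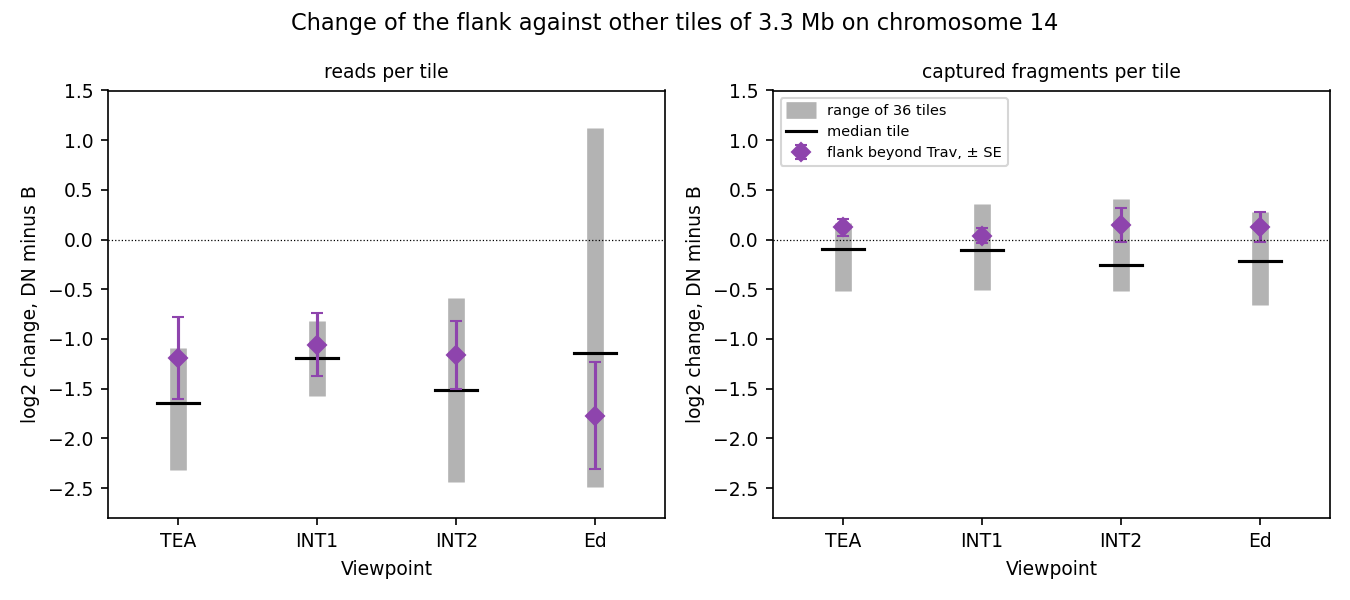
Fitted log2 change of DN minus B for reads per tile (left) and captured fragments per tile (right) from each viewpoint. Diamonds are the flank with its SE, bars span the range of 36 tiles of 3.3 Mb and black lines mark the median tile. For reads the flank lies above the median tile from TEA, INT1 and INT2 and below it from Ed. For captured fragments it lies between 0.04 and 0.15.

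The denominator sets the direction of this comparison from TEA, INT1 and INT2, while from Ed DN stayed lower over all chromosomes. Chromosome 14 outside the viewpoint took 11.4% to 28.6% of mapped reads in the DN libraries and 5.96% to 8.97% in the B libraries. Counted against reads on all chromosomes, the flank's share from TEA was 0.185% and 0.247% in DN, against 0.170% and 0.157% in B, so DN was then the higher cell type. From INT1 it was 0.175% and 0.243% in DN, against 0.199% and 0.163% in B, which overlap. From INT2 it was 0.192% and 0.221% in DN, against 0.166% and 0.196% in B, which also overlap. From Ed the DN libraries stayed lower, at 0.152% and 0.0757% in DN, against 0.179% and 0.176% in B. With that library size the log2 change was 0.39, 0.20, 0.19 and -0.72 from TEA, INT1, INT2 and Ed, and none passed (limma adjusted p from 0.53 to 0.955).

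**Figure D2:**
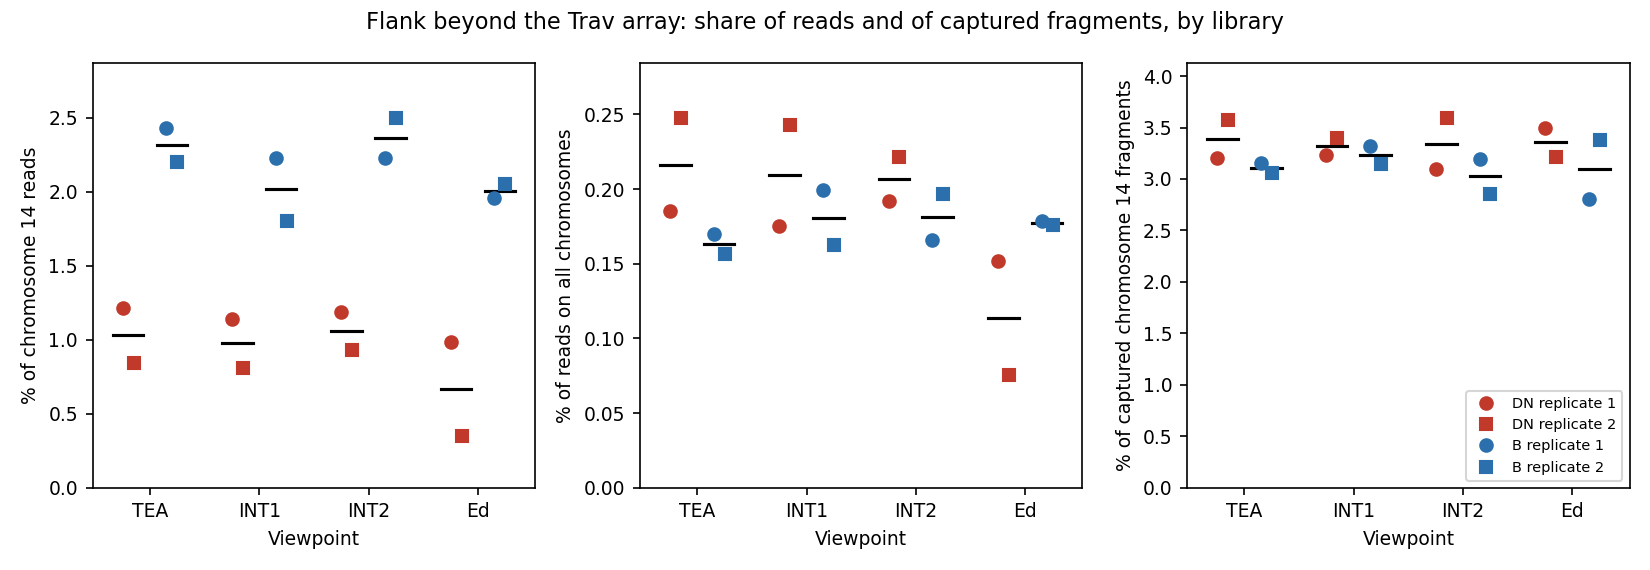
The flank's share of chromosome 14 reads (left), of reads on all chromosomes (middle) and of the fragments captured on chromosome 14 (right), in percent, for each library of each viewpoint. Points are libraries, with DN left of B, and black lines are the means of 2. DN lies below B in the left panel from every viewpoint, and from TEA above B in the middle panel.

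The flank was also measured by counting each fragment once, whatever its reads. A fragment is called captured where a library lists it with at least 1 read. Of the 758 fragments, TEA captured 177 and 152 in DN, against 198 and 229 in B. INT1 captured 196 and 119 in DN, against 201 and 164 in B. INT2 captured 81 and 98 in DN, against 133 and 146 in B. Ed captured the fewest, 60 and 58 in DN, against 62 and 89 in B. The DN libraries were below the B libraries from TEA, INT2 and Ed, and the cell types overlapped from INT1. The exact 95% binomial interval of these capture rates reached 1.96 to 3.33 percentage points to either side.

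As a share of all fragments captured on chromosome 14, the flank differed little between the cell types. It held 3.20% and 3.58% in DN, against 3.15% and 3.06% in B from TEA. It held 3.23% and 3.40% in DN, against 3.32% and 3.14% in B from INT1. From INT2 the values were 3.10% and 3.59% in DN, against 3.19% and 2.86% in B, and from Ed 3.49% and 3.22% in DN, against 2.80% and 3.38% in B. Only TEA separated the cell types, with DN higher. The limma log2 change was 0.12 from TEA (SE 0.09, limma adjusted p = 0.445), 0.04 from INT1 (SE 0.07, limma adjusted p = 0.824), 0.15 from INT2 (SE 0.17, limma adjusted p = 0.506) and 0.12 from Ed (SE 0.15, limma adjusted p = 0.611). No tile passed (0 of 36 for each viewpoint in limma), and 4, 5, 11 and 5 tiles had an unadjusted p below 0.05 from TEA, INT1, INT2 and Ed. The flank ranked 2, 5, 3 and 4 from the highest of 36 tiles.

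Ligation with other autosomes gives the level without proximity on the chromosome, measured in the same library. In DN libraries TEA captured 23.4% and 20.1% of the flank's fragments and 18.0% and 11.99% of those on other autosomes. In B libraries it captured 26.1% and 30.2% in the flank and 21.9% and 25.7% elsewhere. The log2 ratio of the flank's capture rate to that of other autosomes was 0.38 and 0.74 in DN, against 0.26 and 0.24 in B from TEA. It was 0.48 and 1.01 in DN, against 0.36 and 0.37 in B from INT1, and 0.58 and 1.02 in DN, against 0.37 and 0.24 in B from INT2. From Ed it was 0.56 and 0.85 in DN, against 0.23 and 0.34 in B. On other autosomes INT1 captured 18.5% and 7.77% in DN, against 20.6% and 16.7% in B. INT2 captured 7.16% and 6.37% there in DN, against 13.5% and 16.3% in B. Ed captured 5.37% and 4.23% there in DN, against 6.97% and 9.25% in B.

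Each of the 16 libraries thus captured the flank more often than other autosomes, and each DN library did so by a larger ratio than each B library of its viewpoint. The exact permutation test cannot pass 0.05 here (p = 0.333 for each viewpoint). The same separation held in 33.3% of the 36 tiles with TEA, 38.9% with INT1, 36.1% with INT2 and 27.8% with Ed. The difference of the flank was 0.31, 0.38, 0.49 and 0.42 on the log2 scale from TEA, INT1, INT2 and Ed, against 0.10, 0.23, 0.09 and 0.07 for the median tile. It ranked 2, 5, 3 and 4 from the highest. Capture on other autosomes divides this ratio. That capture was lower in DN than in B from TEA, INT2 and Ed, and overlapped from INT1. From each viewpoint the DN library with less capture there had the larger ratio. Within B this held from TEA, INT1 and INT2 but not from Ed. Whether the separation reflects more contact of the flank or the lower divisor was not tested.

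By reads per listed fragment, the flank exceeded other autosomes 1.40-fold and 2.21-fold in DN, against 1.18-fold and 1.09-fold in B from TEA. From INT1 the ratio was 1.33-fold and 2.18-fold in DN, against 1.40-fold and 1.149-fold in B. From INT2 it was 1.45-fold and 1.85-fold in DN, against 1.147-fold and 1.36-fold in B. From Ed it was 1.154-fold and 0.611-fold in DN, against 1.28-fold and 1.24-fold in B. The cell types were apart from TEA and INT2, with DN higher, and from Ed, with DN lower, and they overlapped from INT1. The exact permutation p was 0.333 from TEA, INT2 and Ed, the smallest possible. How many other tiles separate the cell types by this measure is not given here. In Ed of DN replicate 2 the flank thus had fewer reads per fragment than other autosomes while its fragments were captured more often. That library captured 58 fragments with a median of 3.5 reads each, and 5 fragments held 59.3% of the flank's reads.

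The mirror stretch tells whether contacts reached the flank and the opposite side alike. In captured fragments they were close, with 177 and 152 in the flank and 166 and 149 in the mirror for TEA in DN. For TEA in B there were 198 and 229 in the flank and 187 and 245 in the mirror. Over all 16 libraries the log2 ratio of the numbers captured in flank and mirror, of 758 and 800 fragments, lay between -0.22 and 0.37. In reads the log2 ratio was -0.14 and -0.26 in DN, against -0.00 and -0.33 in B from TEA. It was -0.16 and -0.33 in DN, against -0.01 and -0.22 in B from INT1. INT2 separated the cell types, at -0.41 and -0.78 in DN, against -0.03 and -0.04 in B, with an exact permutation p of 0.333, the smallest possible. With the mirror moved by 500 kb the INT2 libraries overlapped, at 0.09 and -0.05 in DN, against -0.05 and 0.21 in B, and the mean difference was -0.061. Ed gave 0.11 and -2.18 in DN, against -0.29 and 0.13 in B. The mean difference for Ed, -0.96, rests on DN replicate 2 and was 0.19 without it.

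Within the flank, the fall of capture with distance from the viewpoint was steepest in DN replicate 2. The flank was split into 3 stretches of 1.1 Mb after the values had been seen, so the following is a description with no test. From TEA the near stretch was captured at 23.0% and 25.4% in DN, against 26.6% and 23.0% in B, and the far stretch at 20.2% and 15.1% in DN, against 24.8% and 29.5% in B. The ratio of near to far capture was 1.14 and 1.68 in DN, against 1.07 and 0.782 in B. From INT1 the ratio was 1.31 and 2.72 in DN, against 1.61 and 1.03 in B. From INT2 it was 1.12 and 1.81 in DN, against 1.19 and 1.16 in B, and from Ed 1.51 and 3.47 in DN, against 0.768 and 0.825 in B. DN replicate 2 had the highest ratio from each viewpoint. The cell types were apart from TEA and Ed, and overlapped from INT1 and INT2, with only the mirror for comparison.

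On the mirror side the same ratio was 1.66 and 2.09 in DN, against 1.80 and 1.18 in B from TEA, and 1.28 and 2.95 in DN, against 1.59 and 1.598 in B from INT1. It was 1.68 and 1.66 in DN, against 1.23 and 1.28 in B from INT2, and 1.27 and 1.73 in DN, against 2.27 and 0.847 in B from Ed. A drop with distance was thus also present there in 15 of 16 libraries, against 13 of 16 in the flank.

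**Figure D3:**
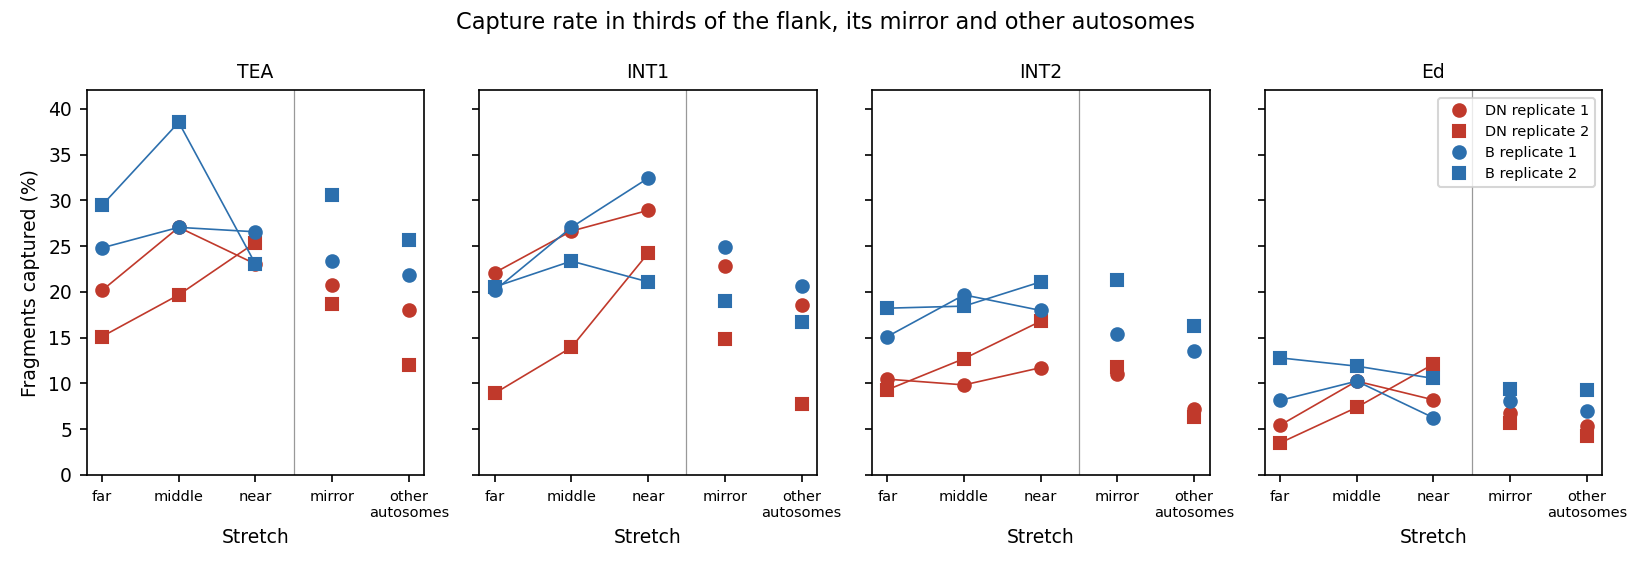
Percent of listed fragments captured in the far, middle and near 1.1 Mb of the flank, in the whole mirror stretch and on other autosomes, for each library of each viewpoint. Lines join the 3 stretches of 1 library. DN replicate 2 climbs from far to near from every viewpoint, and both B libraries from Ed are lower in the near than in the far stretch.

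Summed over the 4 viewpoints and the 2 samples of a cell type, the 3 bins nearest to the Trav array were captured more often in DN than in B. They were singled out after the values had been seen, and no test was made. In the last bin, 52.9 to 53.0 Mb with 35 fragments, 25.0% of fragment and library combinations were captured in DN, against 15.7% in B. In the bin before it, 52.8 to 52.9 Mb with 33 fragments, the rates were 25.0% in DN, against 17.4% in B. By sample they were 17.4% and 32.6% in DN, against 18.9% and 15.9% in B, so the higher rate there rests on DN replicate 2. In the bin at 52.7 to 52.8 Mb they were 23.1% in DN, against 20.2% in B. The capture rate was higher in DN in 4 of the 33 bins, these 3 and the bin at 52.4 to 52.5 Mb, and in 6.42% of all 1200 tested bins. Both DN samples lay above both B samples in 1 bin, the last, at 23.6% and 26.4% in DN, against 14.3% and 17.1% in B, and in 1.42% of all bins. They lay below both B samples in 19 bins, and in 55.6% of all bins.

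The weakest bin in DN was 50.2 to 50.3 Mb, captured at 4.55% in DN, against 13.1% in B. The strongest in B was 51.8 to 51.9 Mb, captured at 19.9% in DN, against 36.03% in B. The 4 viewpoints of a sample share its template, so these sums are not independent measurements of a bin.

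No bin of the flank passed the test of reads between the cell types. From TEA, INT1, INT2 and Ed 0 of 33 bins had a limma adjusted p below 0.05, and over the whole chromosome 0% of 1200 tested bins did. With 1 sample left out, 2 bins passed from TEA without DN replicate 1, where 1.75% of all bins did. From Ed 6 and 4 passed without B replicate 1 and without B replicate 2, where 13.6% and 13.8% of all bins did. From INT2 0 of 33 passed without either B sample, where 7.25% and 5.75% of all bins did. At an unadjusted p below 0.05 there were 7, 5, 3 and 5 bins, all lower in DN, against a background of 13.2%, 13.3%, 21.6% and 13.5% of all bins. Both DN libraries lay below both B libraries in 13 bins with TEA, 16 with INT1, 10 with INT2 and 11 with Ed, where 45.8%, 47%, 48.9% and 34% of all bins did so. They lay above in 2 bins with TEA, 1 with INT1, 0 with INT2 and 1 with Ed, where 3.08%, 2.75%, 4.67% and 5.58% of all bins did so. The median fitted log2 change of the 33 bins was -1.32, -1.35, -0.86 and -2.11 from TEA, INT1, INT2 and Ed, beside -1.80, -1.35, -1.92 and -1.63 over all bins.

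By captured fragments 0 of 33 bins passed from each viewpoint, where 0%, 0.25%, 0% and 0% of all bins did with TEA, INT1, INT2 and Ed. With 1 sample left out, 1 bin passed from TEA without DN replicate 2 (0.417% of all bins), 2 from INT1 without DN replicate 1 (1.75% of all bins) and 1 from Ed without DN replicate 1 (0.333% of all bins). At an unadjusted p below 0.05 in limma there were 5, 1, 1 and 5 bins, where 5.5%, 5.92%, 8.42% and 6.33% of all bins were. Of the 5 bins from TEA 4 were higher in DN, and likewise 4 of the 5 from Ed. Scaled to the fragments captured on chromosome 14, both DN libraries were above both B libraries in 9, 4, 5 and 8 bins from TEA, INT1, INT2 and Ed, against 13.9%, 12%, 12.6% and 13.3% of all bins. They were below in 7, 12, 4 and 4 bins, against 22.4%, 23.8%, 30.8% and 21.7% of all bins.

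**Figure D4:**
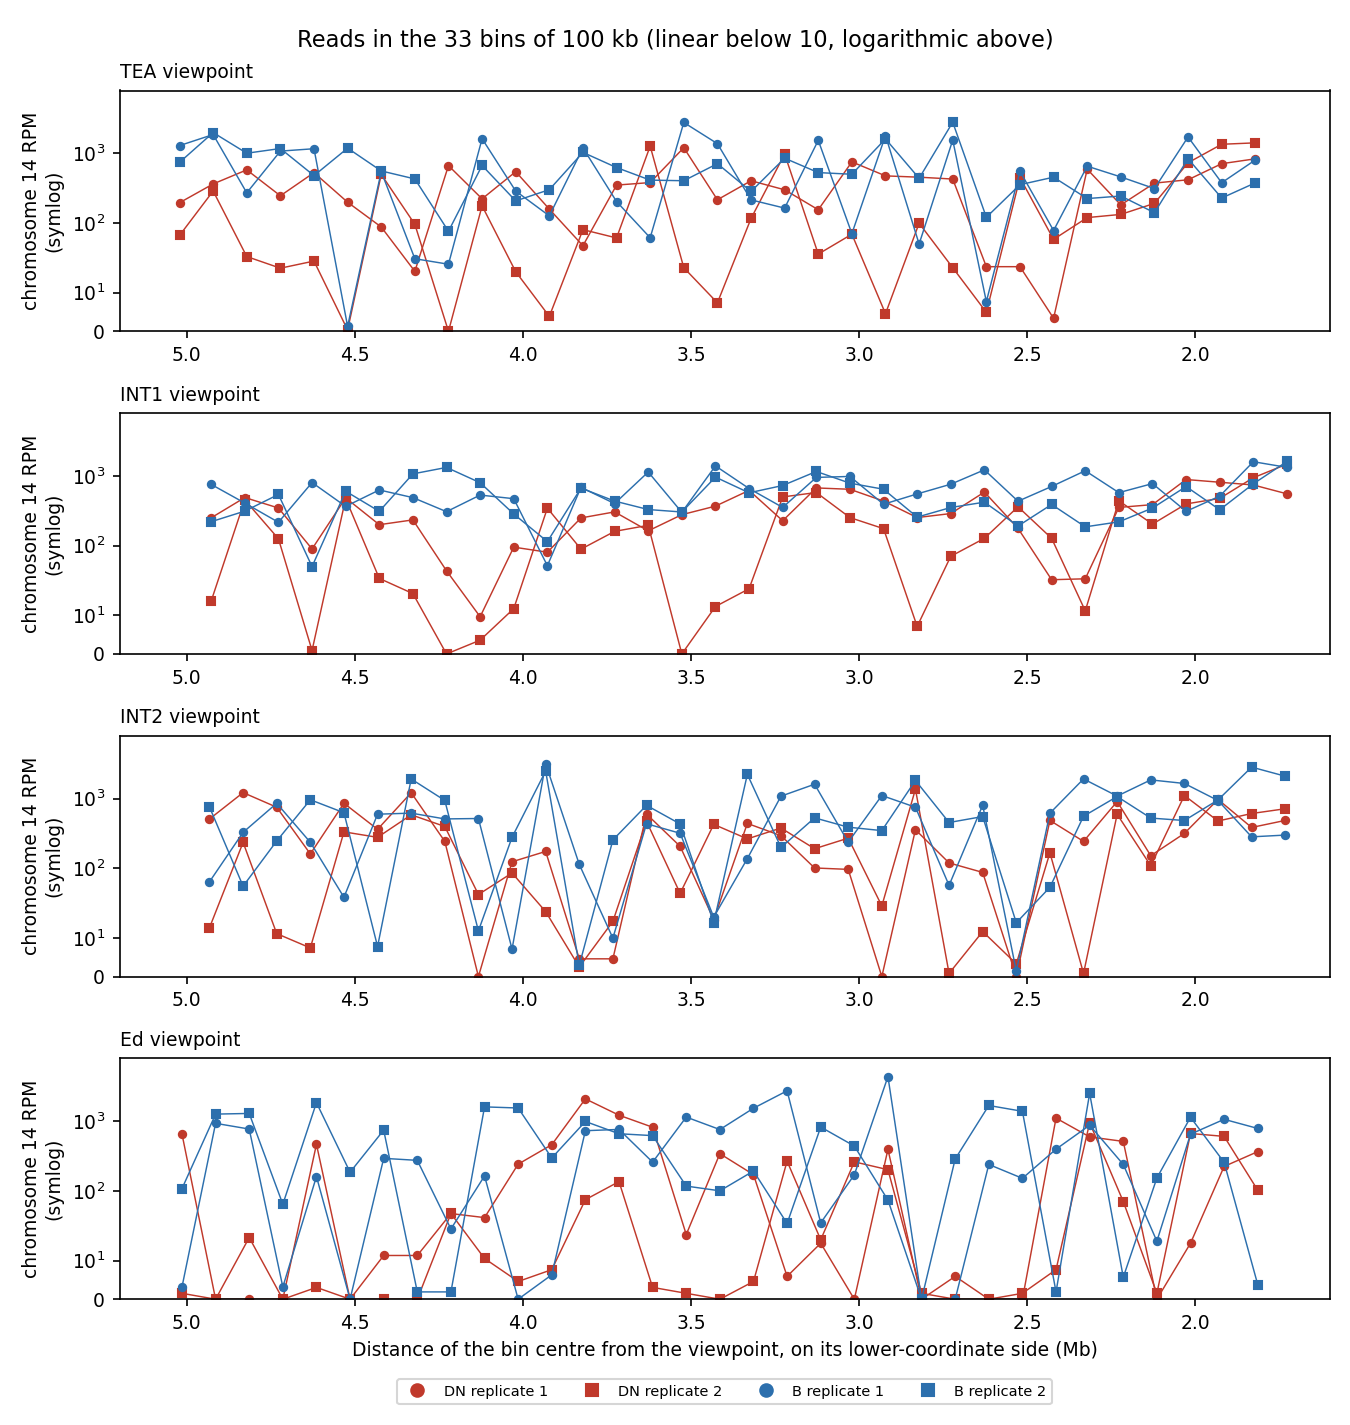
Reads in each of the 33 bins, as chromosome 14 RPM of the library, against the distance of the bin centre from the viewpoint in Mb, with the Trav side at the right. The vertical axis is linear below 10 and logarithmic above. Replicates of 1 cell type differ by more than an order of magnitude in many bins, and DN replicate 2 drops to 0 or close to it in several bins far from the viewpoint.

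The bins that follow are named by rule, as the largest differences in either direction among bins whose cell types do not overlap, and as the bins of highest and lowest mean share. Levels are chromosome 14 RPM of the library. From TEA the largest rise was in the bin at 52.8 to 52.9 Mb, with 711 and 1351 in DN, against 379 and 228 in B, a log2 change of 1.70 (SE 1.33, limma adjusted p = 0.525). The last bin, 52.9 to 53.0 Mb, had 836 and 1416 in DN, against 804 and 377 in B, a log2 change of 0.97 (SE 1.20), with 12 and 9 fragments captured in DN, against 9 and 7 in B. It was the bin of highest mean share in DN. These were the 2 bins in which the DN libraries exceeded the B libraries from TEA.

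The largest fall from TEA was in the bin at 51.8 to 51.9 Mb, with 475 and 4.56 in DN, against 1803 and 1614 in B, a log2 change of -4.35 (SE 1.495, limma adjusted p = 0.230). The bin at 52.0 to 52.1 Mb had 428 and 22.8 in DN, against 1554 and 2803 in B (log2 change -4.13, SE 1.36), the highest mean share in B. The bin at 51.3 to 51.4 Mb had 216 and 7.36 in DN, against 1378 and 712 in B (log2 change -4.00, SE 1.75). In each of these bins the DN replicates differed from each other by more than 1 order of magnitude. The captured fragments differed far less: the bin at 51.8 to 51.9 Mb had 4 and 3 in DN, against 8 and 10 in B.

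Very low TEA bins occurred in both cell types. The bin at 52.1 to 52.2 Mb had 23.6 and 4.91 in DN, against 7.67 and 121 in B, with 3 fragments captured in each of the 4 libraries, and was the lowest in DN. The lowest bin in B, 50.5 to 50.6 Mb, had 667 and 0 in DN, against 25.6 and 76.1 in B. The first bin, 49.7 to 49.8 Mb, had 195 and 66.3 in DN, against 1293 and 742 in B.

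From INT1 the last bin had the highest mean share in both cell types, with 555 and 1484 in DN, against 1331 and 1618 in B, a log2 change of -0.69 (SE 0.63, limma adjusted p = 0.556). Its captured fragments ran the other way, 15 and 14 in DN, against 6 and 8 in B (log2 change 1.30, limma adjusted p = 0.282). The bin at 49.8 to 49.9 Mb was the only one with both DN libraries above both B libraries, at 491 and 453 in DN, against 409 and 313 in B. The largest fall was at 50.5 to 50.6 Mb, with 9.62 and 3.56 in DN, against 533 and 801 in B, a log2 change of -5.35 (SE 2.45, limma adjusted p = 0.330). It was also the lowest bin in DN, although 5 and 2 fragments were captured there in DN, against 6 and 5 in B.

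The neighbouring bin at 50.4 to 50.5 Mb had 43.5 and 0 in DN, against 308 and 1329 in B from INT1. The bin at 52.3 to 52.4 Mb had 33.4 and 11.6 in DN, against 1191 and 186 in B. The first bin had 251 and 16.03 in DN, against 758 and 221 in B, which overlap. The lowest bin in B, 50.7 to 50.8 Mb, had 80.5 and 346 in DN, against 51.5 and 114 in B.

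The same bin at 50.7 to 50.8 Mb gave the largest fall from INT2, with 175 and 23.9 in DN, against 3169 and 2494 in B, a log2 change of -5.16 (SE 1.13, limma adjusted p = 0.113). It was the bin of highest mean share in B from INT2, on 3 and 2 captured fragments in DN and 5 and 6 in B. The bin at 51.7 to 51.8 Mb had 0 and 28.8 in DN, against 1109.9 and 348 in B, and that at 52.3 to 52.4 Mb had 243 and 0.823 in DN, against 1919.9 and 559 in B. No bin had both DN libraries above both B libraries from INT2.

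The highest INT2 bin in DN lay at 50.3 to 50.4 Mb, with 1217 and 586 in DN, against 620 and 1917 in B. The bin at 52.1 to 52.2 Mb was the lowest in both cell types, at 0 and 3.29 in DN, against 1.42 and 16.5 in B, and it holds 12 fragments, the fewest of the 33. The last bin had 487 and 716 in DN, against 299.9 and 2102 in B, and the first had 510 and 13.997 in DN, against 63.9 and 759 in B. Both of these overlap between the cell types.

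From Ed 4 of the 33 bins had no read in either DN library. The bin at 49.8 to 49.9 Mb, with 28 fragments, had 0 and 0 in DN, against 935 and 1269 in B, with 7 and 3 fragments captured in B. A count of 0 allows up to 3 reads per library, which is 17.7 and 4.59 chromosome 14 RPM in these DN libraries. Were all reads independent, the mean level in B would be at least 98.7-fold higher. The bin at 52.1 to 52.2 Mb had 0 and 0 in DN, against 240.1 and 1687 in B (at least 86.3-fold higher in B on the same assumption). The bins at 50 to 50.1 and 50.2 to 50.3 Mb had 0 and 0 in DN, against 3.16 and 64.4 in B and 0 and 186 in B, which give bounds of 3.02-fold and 8.31-fold. These bounds cover counting error of reads only and rest on few captured fragments in B. These were 7 and 3 at 49.8 to 49.9 Mb, 1 and 3 at 52.1 to 52.2 Mb, 1 and 4 at 50 to 50.1 Mb, and 0 and 2 at 50.2 to 50.3 Mb. PCR copies of a ligation are not independent reads, so the bounds do not hold for the number of ligations. The bin at 49.9 to 50 Mb had 0 and 21.4 in DN, against 774 and 1297 in B. The limma adjusted p was 0.366 at 49.8 to 50 Mb and at 52.1 to 52.2 Mb, and 0.603 in the other two bins. Over the flank, 9 and 8 of the 33 bins had no read in DN, against 4 and 1 in B, with 1671 and 2276 flank reads in DN, against 6211 and 10832 in B.

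The largest rise from Ed was at 50.5 to 50.6 Mb, where every library captured 1 fragment, with 47.3 and 47.4 in DN, against 28.4 and 1.89 in B. The highest bin in DN, 50.9 to 51.0 Mb, had 2099 and 74.9 in DN, against 733 and 994 in B. The highest in B, 51.8 to 51.9 Mb, had 396 and 202 in DN, against 4381 and 73.8 in B, so it rested on B replicate 1. The bin at 51.9 to 52.0 Mb was near empty, with 0 and 1.53 in DN, against 0 and 0 in B. The last bin had 367 and 102 in DN, against 790 and 3.79 in B, and the first had 656 and 1.53 in DN, against 3.16 and 108 in B.

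Single fragments carried much of the reads in a bin. In DN libraries the top 5 fragments held 14.3% to 59.3% of the flank's reads, and in B libraries 11.2% to 46.3%. The fragment with the highest mean from TEA, chr14:52966541-52967293, had 0 and 272 RPM in DN, against 0 and 4.69 RPM in B, so 1 library, DN replicate 2, set its rank, with 11.3% of that library's flank reads. For single fragments RPM is the deposited value, scaled to 1000000 mapped reads of the library. The next, chr14:52755599-52755752, had 44.2 and 151 RPM in DN and was listed in neither B library. The third, chr14:51828490-51829597, had 36.8 and 0.701 RPM in DN, against 76.4 and 67.8 RPM in B. The nearest 3 bins, which hold the leading pair, took 16.2% and 41.4% of the flank's TEA reads in DN, against 11.9% and 6.55% in B. From INT1 they took 18.5% and 35.7% in DN, against 15.5% and 15.1% in B. The cell types overlapped from INT2, at 15.5% and 19.4% in DN, against 6.83% and 23.6% in B. They also overlapped from Ed, at 6.16% and 39.6% in DN, against 12.8% and 6.85% in B.

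From INT1 the leading fragment, chr14:52017576-52025551, was captured in all 4 libraries, at 35.8 and 8.05 RPM in DN, against 66.6 and 24.6 RPM in B. The next 2 were almost confined to DN replicate 2, chr14:50099890-50100665 at 0 and 110 RPM in DN, against 0 and 0 in B, and chr14:52136456-52146329 at 0 and 83.1 RPM in DN, against 0.695 and 0 RPM in B. From INT2 the leading fragment, chr14:50312109-50316311, had 124 and 93.9 RPM in DN, against 0 and 85.4 RPM in B. The second, chr14:51832076-51837429, had 25.2 and 223 RPM in DN and was listed in neither B library, while the third, chr14:50762803-50780521, had 182 RPM in B replicate 1 and was listed in no other INT2 library.

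From Ed the leading fragment, chr14:52416253-52426951, was again captured in all 4 libraries, at 78.6 and 158 RPM in DN, against 78.7 and 120 RPM in B. It alone gave 5.75% and 22.5% of the flank's Ed reads in DN, against 4.48% and 6.99% in B. The second, chr14:51854073-51872830, had 386 RPM in B replicate 1 and was listed in no other Ed library, and the third, chr14:50927611-50931993, had 228 and 13.3 RPM in DN, against 51.0 and 31.8 RPM in B.

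Replicates of 1 cell type captured largely different fragments. From TEA the DN libraries had 58 fragments in common, 32.8% of the fragments of replicate 1 and 38.2% of those of replicate 2. The B libraries had 85 in common, 42.9% and 37.1% of their lists. From INT1 there were 50 common fragments in DN (25.5% and 42.02%) and 55 in B (27.4% and 33.5%). From INT2 there were 29 in DN (35.8% and 29.6%) and 44 in B (33.1% and 30.1%), and from Ed 15 in DN (25.0% and 25.9%) and 15 in B (24.2% and 16.9%). Across the 33 bins the number of captured fragments correlated between the DN replicates at a Pearson r of 0.54, 0.60, 0.33 and 0.59 from TEA, INT1, INT2 and Ed. Between the B replicates r was 0.34, -0.10, 0.02 and -0.07. These are descriptions over 33 bins, which share the number of fragments in a bin, and neighbouring bins are not independent.

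Over the 16 libraries, 241 of the 758 fragments were captured in 1 library and 29 in 8 or more, with a median of 2 libraries. In all, 395 fragments were captured in both cell types, 126 in DN libraries only and 237 in B libraries only. These are 52.1%, 16.6% and 31.3% of the flank's fragments, where the shares were 43.3%, 18.2% and 38.5% over chromosome 14 and 35.3%, 19.2% and 45.5% over the other autosomes. The median length was 2074.5 bp for the 418 fragments captured in 1 or 2 libraries and 3415 bp for the 253 in 3 to 5. It was 5602.5 bp for the 78 in 6 to 9 libraries and 6004 bp for the 9 in 10 or more. Within these classes it did not climb steadily, with 6772.5 bp at 6 libraries and 3665.5, 3756 and 1682.5 bp at 7, 8 and 9. Across fragments, length and number of libraries had a Spearman correlation of 0.38, given as a description. All 758 had a median length of 2647 bp and ranged from 15 to 23455 bp.

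The most recurrent fragment, chr14:51229789-51232411, 2623 bp long, was captured in 14 of 16 libraries, 7 of each cell type. The next, chr14:52017576-52025551, which also led the INT1 reads, was captured in 12, 6 of each. Of the 9 fragments captured in 10 or more libraries, 3 lay within 51.2 to 51.4 Mb beside the leading one, and all 9 were captured in at least 4 libraries of each cell type.

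No difference between viewpoints passed the test. Within DN, none of the 6 pairs of viewpoints differed in the flank's share of chromosome 14 reads. The widest gap was INT2 minus Ed, a log2 difference of 0.84 (SE 0.40, limma adjusted p = 0.370), and 2.78% of the pair and tile combinations on the chromosome passed. Within B, none of the 6 pairs passed either, with differences from -0.23 to 0.23 (SE 0.17, limma adjusted p from 0.371 to 0.998), where 19.4% of pair and tile combinations passed. A p above the threshold does not show that the viewpoints were alike. The difference between cell types was itself compared between viewpoints in 6 interaction contrasts, and 0 passed, as on the whole chromosome (0%). The widest was INT1 minus Ed at 0.71 (SE 0.44, limma adjusted p = 0.551).

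By fragments, viewpoints of 1 sample shared part of their lists, and the overlap to be had from capture rates alone was not computed. For comparison, replicates of INT2 had 29 in common in DN and 44 in B, and those of INT1 had 50 and 55. INT1 and INT2, the closest pair at 3.36 kb apart, had 34 captured flank fragments in common in DN replicate 1, 17.3% of INT1's and 41.98% of INT2's, and 33 in DN replicate 2, 27.7% and 33.7%. In B they had 45 (22.4% and 33.8%) and 47 (28.7% and 32.2%). TEA and Ed, whose viewpoint fragments lie 4.44 kb apart, had 22 and 16 in DN, which were 36.7% and 27.6% of Ed's fragments and 12.4% and 10.5% of TEA's. In B they had 20 and 35, which were 32.3% and 39.3% of Ed's and 10.1% and 15.3% of TEA's.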

How the data were processed

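Per the file headers, the deposited files list HindIII fragments, padded by 40 bp, with reads scaled by the authors to 1000000 mapped reads (RPM), and fragments not listed were taken as 0. The submitters' processing notes name CASAVA, Bowtie and the build mm9, with no versions or settings. In each library 100% of RPM values were whole multiples of 1 read within 0.01 read. Reads were recovered on this basis and tested with edgeR 4.0.16 for INT1, INT2 and Ed, but not for TEA. The depth of TEA in DN replicate 2 was taken as less certain. The edgeR outcomes are not given here, so the limma calls stand without them. The authors' 8 files of mean RPM were not used. Each sample's cell type and viewpoint came from the labels.

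Values were summed in bins of 100 kb (at least 5 listed fragments, 1200 tested) and tiles of 3.3 Mb (36 tested), without bins or tiles within 1 Mb of a viewpoint. The chromosome 14 total, without the viewpoint fragment and its neighbour on either side, was the library size. Main tests used limma 3.58.1 (R 4.3.3) on log2 of RPM of that size plus a pseudocount of 10, which understates changes of low values, with a mean-variance trend. Captured fragments had an offset of 0.5. Pairs of viewpoints were fitted with the sample as a block. Adjusted p is Benjamini-Hochberg over all bins or tiles of a viewpoint, or over tiles and the 6 pairs. All tests were two-sided. The bin and tile fits were tested on simulated data, in which the bin fit missed most changed bins at every size tried, so bins that did not pass are not shown to be alike. The tile fit recovered most tiles at the larger sizes and missed most at the smallest. Single values had exact permutation tests over samples. Named bins are those past the threshold (none), up to 3 with the largest change in each direction among bins whose cell types do not overlap, those of highest and lowest mean share, and the first and last. The 3 fragments of highest mean RPM are named for each viewpoint. Members, lists and tests were chosen with earlier results of these data known. Alternatives covered library size, capping, pseudocount, trend, filters, bin width, depth, the mirror's position, a replicate block and each sample left out. Between same-numbered DN and B samples the deviations from group means correlated at -0.03 to 0.02 over bins. The main fits of DN against B used no pairing by number, and such correlations cannot exclude one. Figures used Python 3.11.15, pandas 2.3.3 and matplotlib 3.10.9.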

Additional observations from a re-analysis of the deposited data

How the results depend on the processing

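The fall of the flank's share of chromosome 14 reads depends on the library size. From Ed DN stayed lower when reads on all chromosomes were counted. On the log2 scale the change turned to 0.46, 0.12 and 0.27 from TEA, INT1 and INT2 with TMM factors, which centre the tiles. It turned to 0.39, 0.20 and 0.19 from these 3 with library size over all chromosomes. With fragments capped at the 95th percentile it was -0.22, -0.66 and -0.43 and no longer passed, and INT1 at -1.06 did not pass without the mean-variance trend (limma adjusted p 0.0517); the cause was not tested. With library size in excess of the density on other autosomes it was -2.60, -1.85 and -2.32 from TEA, INT1 and INT2 and -2.52 from Ed, all past the threshold (limma adjusted p 0.000223, 0.0044, 0.000173 and 0.018). Only the library size was reduced there, while the flank's reads kept the level of other autosomes. The share of other tiles past the threshold in that fit is not given here. With each sample left out the change ranged from -1.45 to -0.93 from TEA, -1.30 to -0.81 from INT1, -1.34 to -0.99 from INT2 and -2.52 to -1.02 from Ed. For captured fragments from Ed it ranged from -0.0092, without B replicate 1, to 0.26 with each sample left out. The fit with a replicate block changed no call (reads -1.19, -1.06, -1.16 and -1.77, limma adjusted p 0.00188, 0.0219, 0.0273 and 0.0693), and 0 bins passed under it. Bins past the threshold numbered 6 from TEA and 1 from INT1 with the excess library size, where 10.5% and 3.08% of all bins passed lower in DN. With each sample left out they numbered 0 to 2 from TEA (1.75% of all bins without DN replicate 1) and 0 to 6 from Ed (13.6% and 13.8% without B replicate 1 and without B replicate 2). By captured fragments they were 0 to 1 from TEA, 0 to 2 from INT1 and 0 to 1 from Ed (at most 1.75%, 1.75% and 0.333% of all bins), and 1 from Ed when thinned to equal depth (0.167% of all bins). The difference in flank over mirror was 0.24 from TEA and -0.061 from INT2 with the mirror moved by 500 kb, and from INT2 0.024 by captured fragments and -0.21 with capping. Flank over other autosomes was 0.72 from INT2 with capping and 0.42 from Ed by captured fragments, against -0.59 by reads. Among named bins, 2 turned sign with the excess library size, the last from TEA (-0.43) and 49.8 to 49.9 Mb from INT1 (-0.39). Between viewpoints no pair passed in any fit, and uncalled differences changed sign. With capping, DN turned for INT2 minus TEA (-0.30), and B turned for INT1 minus TEA (0.11), INT2 minus TEA (-0.090), Ed minus TEA (0.25), INT1 minus INT2 (0.20), INT1 minus Ed (-0.14) and INT2 minus Ed (-0.34). By captured fragments, DN turned for INT2 minus TEA (-0.017), INT1 minus Ed (-0.023) and INT2 minus Ed (-0.012), and B for INT1 minus TEA (0.057), INT2 minus TEA (-0.039), INT1 minus INT2 (0.10) and INT2 minus Ed (-0.032). Interaction contrasts turned with capping for INT1 minus TEA (-0.44), INT2 minus TEA (-0.21) and INT1 minus INT2 (-0.23). By captured fragments they turned for INT1 minus TEA (-0.085), Ed minus TEA (0.00059), INT1 minus INT2 (-0.11) and INT1 minus Ed (-0.085). From Ed 9 and 8 of 33 bins had no read in DN, against 4 and 1 in B, and a count of 0 gives only a bound there.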
